A study of Homo sapiens with 6 samples.

Results

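The genes described here encode the voltage-gated sodium, calcium and potassium channels, the other potassium channels and the pacemaker HCN channels, with their auxiliary subunits. They were taken by gene symbol: KCN genes of every subfamily, SCN pore and beta subunits, CACNA1, CACNA2D and CACNB subunits, and HCN genes. The rule found 105 genes among the 32862 in the deposited table. Poly(A)-selected RNA was sequenced from SH-SY5Y, an established human neuroblastoma cell line, in 6 libraries. There were 3 libraries of OTULIN knockout (KO) cells, made with CRISPR-Cas9, and 3 of wild-type (WT) cells. OTULIN is a deubiquitinase that removes linear (Met1-linked) ubiquitin chains. Both groups were untreated, were grown in the same medium with serum, and carry the same batch number in the labels. Nothing in the labels tells whether the KO cells are a single clone or the replicates separate cultures. The p-values below therefore cover the spread between libraries alone, and that spread may be technical.

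Voltage-gated channels open when the membrane depolarises: sodium channels (Nav) carry the upstroke of the action potential, calcium channels (Cav) let in the calcium that triggers transmitter release, and potassium channels (Kv) repolarise the cell. Inward rectifiers (Kir) and two-pore-domain channels (K2P) set the resting potential, Ca2+-activated potassium channels (KCNN, KCNMA1) follow the calcium signal, and HCN channels open on hyperpolarisation. Pore-forming alpha subunits assemble with auxiliary subunits that change their gating or bring them to the membrane. SH-SY5Y cells are widely used as neuron-like cells in which such channels are recorded.

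The libraries differed widely in depth. Counts summed to 725827 to 862932 per KO library and to 61772795 to 64352333 per WT library. OTULIN itself had 1682, 2101 and 2155 counts in the WT libraries but none in KO, where it was at least 25.2-fold lower against a floor of 3 counts over the group. A set of 4 loci inside ribosomal RNA genes took 29.7%, 36.5% and 19.5% of the KO counts and at most 0.823% in WT. Markers of adrenergic neuroblastoma cells were all listed in the table (10 of 10). Their summed level was 6217 to 6877 CPM (counts scaled to a common library total) in WT and 525 to 696 CPM in KO, where DBH, TH, PHOX2A, GATA3, CHGA and CHGB, 6 of the 10, had 0 counts. Heart and skeletal muscle markers, whose cells also use many of these channels, summed to 40.3 to 47.0 CPM in WT, with all 6 at 0 in KO. Most of the WT sum was the long gene TTN (mean 33.4 CPM, but 0.257 FPKM). At their WT share of counts and the KO depth, TNNT2, MYH7 and MYL2 would have had fewer than 3 KO counts. Glial markers summed to 0 to 26.7 CPM in KO and at most 1.04 in WT, with GFAP, AQP4, MOG and SOX10 at 0 in KO. Blood markers summed to at most 6.89 CPM in KO and 0.809 in WT, with CD68 and CSF1R at 0 in KO. Epithelial markers spanned similar sums, 4.94 to 23.4 CPM over KO libraries and 6.03 to 20.9 CPM over WT libraries, with KRT8 at 0 in KO. The part of depth, composition and other cells in the results that follow was not tested. In bulk RNA, fewer cells of a type and less RNA per cell cannot be told apart.

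The sequences upstream of the start sites are shown for the genes on which the comparison turns: 4 genes with higher levels in KO (KCNN2, KCNN3, CACNA1A, CACNB3), the member highest in WT (KCNH2), and the next highest (HCN3), which had 0 counts in KO. They are RefSeq sequence of build GRCh38.p14, 5′ to 3′ on the strand of the gene, from 200 bases before the most upstream start, with bases inside an annotated exon left out. The windows are chr5:114361870-114361963 (plus strand) for KCNN2, chr1:154870282-154870481 (minus strand) for KCNN3, chr19:13506504-13506679 (minus strand) for CACNA1A, chr12:48814280-48814431 (plus strand) for CACNB3, chr7:150978322-150978521 (minus strand) for KCNH2 and chr1:155277263-155277462 (plus strand) for HCN3. The KCNN2, CACNA1A and CACNB3 windows lie inside the longer gene models of the deposited table. Capitals mark GC boxes (GGGCGG on either strand), the only searched motif found in them.
KCNN2: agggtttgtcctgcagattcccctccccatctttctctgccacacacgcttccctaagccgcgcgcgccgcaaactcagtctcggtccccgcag
KCNN3: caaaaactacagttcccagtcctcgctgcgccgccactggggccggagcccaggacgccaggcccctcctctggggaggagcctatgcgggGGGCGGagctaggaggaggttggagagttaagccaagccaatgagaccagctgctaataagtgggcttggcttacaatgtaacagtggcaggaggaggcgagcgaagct
CACNA1A: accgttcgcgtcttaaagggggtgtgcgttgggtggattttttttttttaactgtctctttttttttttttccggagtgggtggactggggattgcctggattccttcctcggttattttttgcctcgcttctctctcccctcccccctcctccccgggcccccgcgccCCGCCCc
CACNB3: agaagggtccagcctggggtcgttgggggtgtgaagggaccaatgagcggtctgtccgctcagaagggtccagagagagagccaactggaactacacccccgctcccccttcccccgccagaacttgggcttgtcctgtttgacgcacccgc
KCNH2: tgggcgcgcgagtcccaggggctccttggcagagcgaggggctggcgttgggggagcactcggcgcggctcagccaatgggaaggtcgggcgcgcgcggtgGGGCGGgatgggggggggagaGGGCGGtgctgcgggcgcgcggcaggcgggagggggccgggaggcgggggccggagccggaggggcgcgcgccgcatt
HCN3: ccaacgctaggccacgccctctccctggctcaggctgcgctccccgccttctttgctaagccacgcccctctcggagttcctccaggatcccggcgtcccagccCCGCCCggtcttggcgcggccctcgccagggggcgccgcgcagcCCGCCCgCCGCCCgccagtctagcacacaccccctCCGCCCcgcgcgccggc
A window was found for 79 of the 105 genes. Over the full 200 bases, 53 of the 79 held a GC box (67.1%, against 40.1% of 35116 RefSeq windows of the same length), with a median GC content of 67.5% against 59%. Each member gave 1 window, at its most upstream start, while the RefSeq windows were not reduced to 1 per gene. The shares here are therefore of unlike sets. Among members with a KO count, 10 of the 13 that have a window held one. A TATA box (TATAAA) was in 5.06% of the member windows and 8.59% of all, an E box (CACGTG) in 5.06% and 5.49%, a cyclic-AMP response element (TGACGTCA) in 1.27% and 1.57%, and the left part (TTCAGCACC) of the RE1 site bound by the repressor REST in 1.27% and 0.194%. The last 2 motifs were each in 1 member window, so these shares rest on a single gene. Both strands were searched, and no 2 motifs overlapped in the printed windows.

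In WT cells the channel genes formed a steep order, given here in FPKM, which is scaled to gene length (mean ± SD, n = 3). KCNH2, the hERG delayed-rectifier potassium channel, stood highest, with 35.9, 33.5 and 32.1 FPKM in the 3 WT libraries (33.8 ± 1.9). HCN3, a pacemaker-channel pore subunit, followed at 14.0 ± 0.49 FPKM. CACNA2D2, an alpha2delta subunit that helps bring calcium channels to the membrane, was at 13.3 ± 1.0 FPKM, and the values of HCN3 and CACNA2D2 overlapped. CACNA2D1, another alpha2delta subunit, was at 8.45 ± 0.63 FPKM. The leak channels KCNK1 and KCNK3 (TWIK and TASK types) were at 7.58 ± 0.78 and 7.49 ± 0.88 FPKM, and CACNB3, a cytosolic calcium-channel beta subunit, at 6.63 ± 0.75. From CACNA2D1 to CACNB3, each gene overlapped its neighbour between libraries.

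Below CACNB3 there was a gap, and then a run of members at 2.36 to 4.31 FPKM. It held KCNJ8 (4.31 ± 0.077), a pore subunit of ATP-sensitive potassium channels, KCNH8 (4.18 ± 0.60) of the ELK type, HCN2 (4.09 ± 0.80), CACNB1 (4.02 ± 0.41) and the Kv beta subunit KCNAB3 (3.98 ± 0.16). KCNMB4, the neuronal beta subunit of the large-conductance channel, was at 3.20 ± 0.15 FPKM. CACNA1B, the N-type calcium-channel pore, was at 3.06 ± 0.029 FPKM and KCNQ1 at 3.06 ± 0.33. SCN3B, a sodium-channel beta subunit, was at 2.89 ± 0.39, the sodium-activated KCNT2 at 2.36 ± 0.53 and SCN3A, the highest sodium-channel pore gene, at 2.36 ± 0.54 FPKM. Of the 19 neighbouring pairs among the first 20 members, 14 overlapped between libraries. The silent Kv modifiers, which shape partner Kv channels and do not conduct alone, were led by KCNG1 at 1.15 ± 0.16 FPKM. Over all 105 members the median was 0.187 FPKM. There were 35 members at 1 FPKM or more and 40 under 0.1, and the first 5 held 45.5% of the summed FPKM of the members, the first 20 81.2%. The same 20 were not recovered by CPM, which takes no account of length: 14 were among the first 20 by both.

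**Figure D1:**
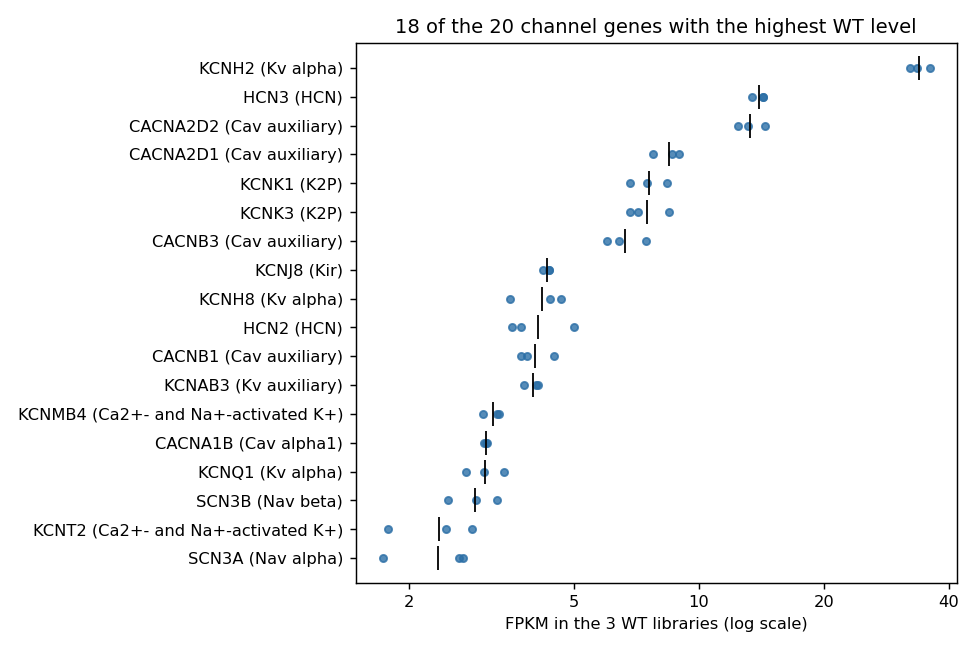
Level of 18 of the 20 channel genes with the highest mean in WT, in FPKM on a log scale. Points are the 3 WT libraries and the vertical bar their mean; KCNH2 stands apart at 33.8 FPKM, and most lower neighbours overlap.

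Against this WT profile, the channel genes held a smaller part of the KO libraries. Their share of all counts was 0.148%, 0.146% and 0.143% in WT (0.146% ± 0.0026, n = 3) and 0.0392%, 0.0381% and 0.0350% in KO (0.0374% ± 0.0022, n = 3), 3.89-fold lower. The groups did not overlap, with p = 0.1 by a two-sided exact permutation test, the smallest that 3 against 3 libraries allow. A count was present for 94, 97 and 96 members in the WT libraries and for 10, 13 and 12 in the KO libraries (95.7 ± 1.5 and 11.7 ± 1.5, n = 3, exact permutation p = 0.1). Over the KO group, 90 of the 105 members (85.7%) were at 0, near the 88.9% of all genes in the table.

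At the KO depth many members would have few counts, so each member was set beside the counts it would have at its WT share of counts and the KO depth. For 51 members that number was under 3, so 0 KO counts say little about their level. For 54 members it was at least 3, and 44 of them (81.5%) had 0 KO counts, as had 78.6% of the 14651 genes of the table that met the same condition. At 30 counts or more, 22 of 31 members (71.0%) and 72.2% of 9806 genes were at 0. The share of channel genes at 0 was therefore close to that of genes in general at either limit. In sum, 3495 counts would have fallen on the members and 900 were observed.

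**Figure D2:**
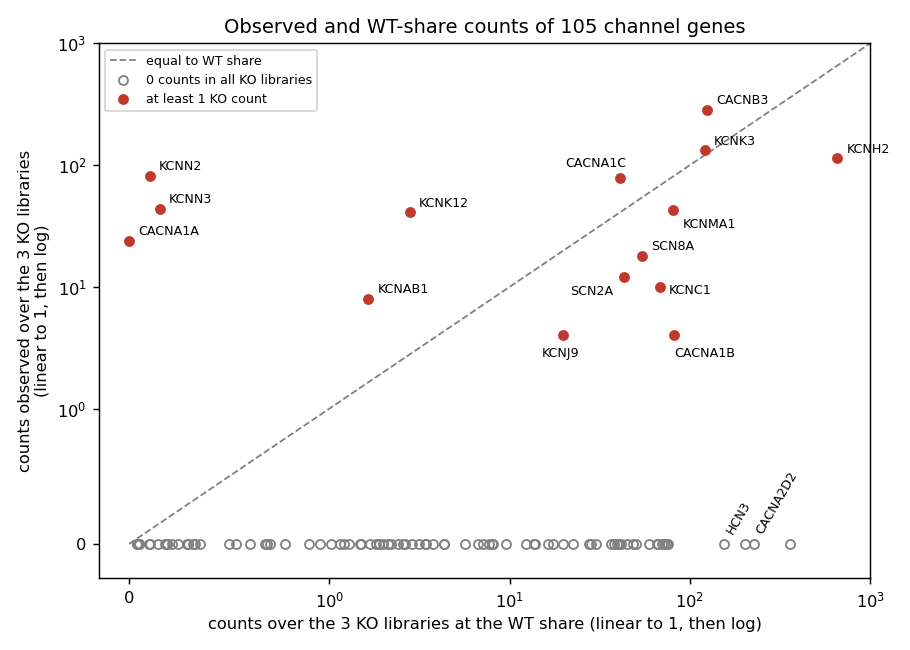
Counts observed over the 3 KO libraries (vertical axis) against the counts each of the 105 channel genes would have at its WT share and the KO depth (horizontal axis), both linear to 1 and then log. Filled points are the 15 members with a KO count, open points the 90 at 0, and the dashed line marks equality, above which 8 members lie.

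Of the 105 members, 25 reached a mean of 1 FPKM across all libraries and entered the test of KO against WT, and 80 did not. With edgeR's quasi-likelihood test and an adjusted p under 0.05, 22 of the 25 were lower in KO, where 88% of the 10820 genes tested were lower. Of these 22, 18 were at 0 in KO and passed the filter through WT alone, so they had to differ (adjusted p from 1.4e-05 to 0.00093, edgeR). CACNA1B had KO counts but also passed through WT alone (mean 0.137 FPKM in KO, 3.06 in WT). KCNJ9 and KCNC1 passed mostly through WT (0.325 and 0.217 FPKM in KO, 1.80 each in WT). The filter therefore favoured a lower KO level for CACNA1B, KCNJ9 and KCNC1 too. A further 2, KCNN2 and CACNB3, were higher, where 7.63% of the genes tested were higher, and 1, KCNK3, was not called. Values did not overlap between groups for 24 of the 25, against 96.2% of all genes tested. The median fitted log2 change was -12.2 for the members and -12.4 for all genes tested. With genes at 0 in KO placed at their bound of 3 counts, the medians were -4.01 and -4.63. Without the filter, all 105 members could be tested: 58 were lower (42.6% of 32862 genes), 5 higher (2.46%) and 42 not called. Of the 58, 7 would have had fewer than 3 KO counts at the WT share, so their calls rest on little depth. The 1496 tested genes with at least 30 KO counts, a set selected by its KO counts, had a median log2 change of 0.57 with TMM factors. It was 0.010 with median-ratio scaling and 0.96 with library totals alone, median shifts of -0.56 and 0.40.

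Kv pore subunits made up the largest part of the channel counts in WT. Summed over the 23 members, they stood at 624 ± 23 CPM in WT and 52.1 ± 7.0 CPM in KO (n = 3 each). At 0 in KO were 21 of the 23, near the 88.9% of all genes, and 13 of the 15 that would have had 3 or more KO counts at the WT share. Their part of all channel counts was 42.8% in WT and 13.9% in KO. KCNH2 had 18049, 17429 and 16091 counts in WT and 42, 33 and 39 in KO, that is 274 ± 15 CPM against 48.0 ± 8.5. All KO libraries were far below all WT libraries, with a 5.71-fold lower CPM and a log2 change of -2.92 (SE 0.13, adjusted p = 9.4e-06, edgeR). KCNH8, with 1451, 1869 and 1916 WT counts, and KCNQ1, with 1134, 1049 and 912, were at 0 in every KO library, at least 22.2- and 13.1-fold lower. KCNC1, a fast high-threshold channel, had 1666, 1968 and 1711 counts in WT and 0, 6 and 4 in KO, 6.82-fold lower (log2 change -3.15, SE 0.45, adjusted p = 0.00039, edgeR). Without KO replicate 2, it was 10.3-fold lower. KCNC1 passed the filter mostly through its WT values. The 7 silent Kv modifiers summed to 9.14 ± 1.1 CPM in WT (n = 3). None had a KO count, but only KCNG1 would have had 3 or more at the WT share.

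Among Kv auxiliary subunits (11 members, 10 at 0 in KO, of which 3 would have had 3 or more counts at the WT share), KCNAB3 had 1196, 1333 and 1270 WT counts and none in KO, at least 16.1-fold lower. KCNAB1, another beta subunit, had 46, 40 and 43 counts in WT and 0, 0 and 8 in KO. Its KO signal came from replicate 3 alone, and the member was not called in the unfiltered fit (log2 change 1.76, adjusted p = 0.32, edgeR). Without that library it was at 0 in KO.

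The HCN genes were at 0 throughout KO. HCN3 had 4090, 4254 and 3838 WT counts, and 155 would have been present in KO at the WT share. It was at least 51.7-fold lower, and HCN2, with 1160, 896 and 817 WT counts, at least 12.2-fold lower. All 3 HCN members summed to 81.3 ± 4.4 CPM in WT (n = 3).

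Of the 8 sodium-channel pore genes, 6 were lower in the unfiltered fit, in which 42.6% of all genes were lower. The 2 not called, SCN1A and SCN11A, would have had 0.90 and 1.82 KO counts at the WT share. The 8 members summed to 111 ± 16 CPM in WT and 12.9 ± 8.0 CPM in KO (n = 3 each), and 6 had no KO count. SCN3A had 1364, 2195 and 2064 WT counts and none in KO, at least 23.8-fold lower. SCN2A, its neighbour on chromosome 2 and overlapping it on the opposite strand, had 1019, 1199 and 1178 WT counts and 6, 2 and 4 in KO. It was 3.55-fold lower by CPM (log2 change -2.37, SE 0.26, adjusted p = 0.00036, edgeR without the filter). SCN8A, a pore subunit of the axon initial segment, had 1244, 1670 and 1366 counts in WT and 0, 6 and 12 in KO, 2.90-fold lower (log2 change -2.12, SE 0.57, adjusted p = 0.023, edgeR without the filter). This call was lost without KO replicate 2 (adjusted p = 0.077), without WT replicate 2 (0.081) or with library totals (0.086), and without KO replicate 3 the fold was 6.53. All 4 sodium-channel beta genes were at 0 in KO, of which 2 would have had 3 or more counts at the WT share. SCN3B, with 1689, 2045 and 2209 WT counts, was at least 25.2-fold lower.

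**Figure D3:**
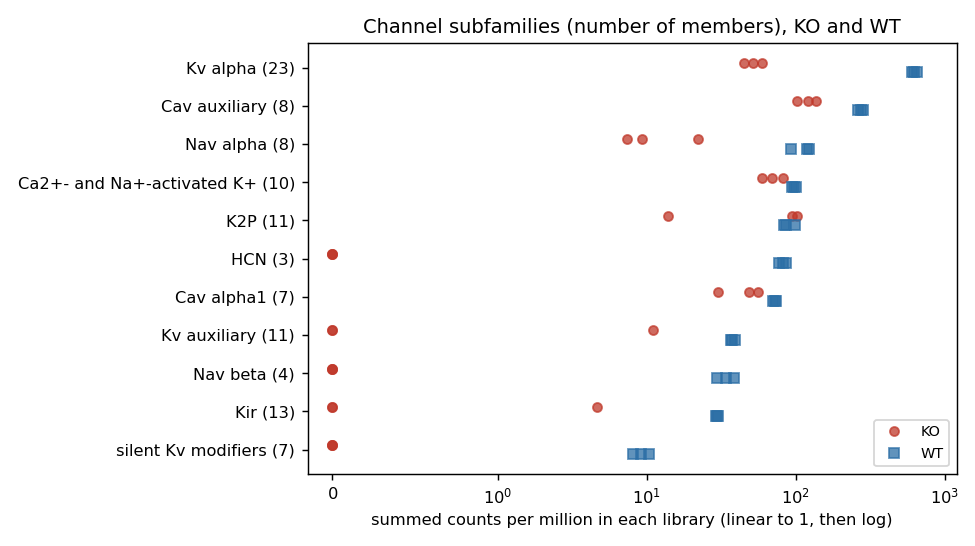
Summed CPM of each channel subfamily in every library (linear to 1, then log), with the number of members in brackets. Circles are KO and squares WT libraries; HCN, Nav beta and silent Kv genes are at 0 in all KO libraries, while the K2P values of the groups overlap.

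Calcium-channel auxiliary subunits divided. CACNA2D2 had 6349, 5985 and 5450 counts in WT and CACNA2D1 4824, 5772 and 5339, and both had 0 in every KO library. They were at least 75.5- and 67.6-fold lower in KO. CACNB1, with 2160, 1923 and 1787 WT counts, was at 0 as well, at least 24.9-fold lower. CACNB3 had 3627, 3225 and 2906 counts in WT and 82, 104 and 99 in KO, the most of any channel gene in KO. Its CPM was 119 ± 18 in KO and 51.8 ± 5.8 in WT (n = 3 each), 2.30-fold higher, with no overlap. The log2 change was 0.81 (SE 0.15, adjusted p = 0.0016, edgeR). With median-ratio size factors it was 0.24 (adjusted p = 0.16), and DESeq2 gave 0.24 (adjusted p = 0.13), so the call depends on the scaling. With library totals it was 1.20. The 1496 tested genes with at least 30 KO counts, CACNB3 among them, had medians of 0.57 (TMM), 0.010 (median ratio) and 0.96 (totals). That set was selected by its KO counts, which pushes its medians up, so it cannot tell what the higher CACNB3 level reflects. The cause was not tested.

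The calcium-channel pore genes differed among themselves. CACNA1B had 2128, 2202 and 2083 counts in WT and 4, 0 and 0 in KO, 20.7-fold lower (log2 change -4.74, SE 0.51, adjusted p = 9.1e-05, edgeR). All its KO counts came from replicate 1, and it passed the filter through WT alone. CACNA1C, the L-type pore of heart and brain, had 1006, 1076 and 1127 counts in WT and 31, 20 and 27 in KO, that is 17.0 ± 1.1 and 32.9 ± 8.4 CPM. Every KO value was above every WT value by CPM, but the unfiltered fit did not call it (log2 change 0.41, SE 0.15, adjusted p = 0.074, edgeR). The change was -0.029 with median-ratio factors and 0.94 (adjusted p = 0.0057) with library totals. Tested genes with at least 30 KO counts, a set selected by those counts, had medians of 0.010 and 0.96 under these scalings. CACNA1C also passed without KO replicate 2 (adjusted p = 0.013) and without WT replicate 3 (0.049). CACNA1A, the P/Q-type pore of presynaptic terminals, was the only member at 0 in all WT libraries, and had 10, 6 and 8 counts in KO (10.1 ± 2.8 CPM, n = 3). Against a floor of 3 counts over the WT group it was at least 635-fold higher in KO (adjusted p = 0.00015, edgeR without the filter), and at least 418-fold without WT replicate 2. In the table, 67 genes (0.204%) had this pattern of 0 in every WT library and a count in KO.

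The Ca2+- and Na+-activated potassium channels held both directions. KCNN2 and KCNN3 encode small-conductance channels that are gated by calcium through calmodulin and contribute to the afterhyperpolarisation of neurons. KCNN2 had 46, 23 and 13 counts in KO and 4, 0 and 4 in WT libraries. All KO values lay above all WT values, with 33.8 ± 20 CPM against 0.0430 ± 0.037 (n = 3 each), 786-fold higher. The log2 change was 9.11 (SE 0.83, adjusted p = 4.5e-05, edgeR), and the fold was 518 without KO replicate 1. KCNN2 passed the filter through its KO values alone. KCNN3 had 0, 22 and 22 counts in KO and 4, 0 and 8 in WT. KO replicates 2 and 3 were far above WT at 25.5 and 30.3 CPM, while KO replicate 1 overlapped WT at 0. Its mean was 288-fold higher in KO (log2 change 7.56, SE 1.28, adjusted p = 0.0029, edgeR without the filter) and 579-fold higher without WT replicate 3. KCNMA1, the pore of the large-conductance channel, had 2112, 2077 and 2169 counts in WT and 20, 15 and 8 in KO, 1.91-fold lower (log2 change -1.44, SE 0.22, adjusted p = 0.0016, edgeR without the filter). KCNMB4, its neuronal beta subunit, and KCNT2 were at 0 in KO, at least 13.6- and 14.9-fold lower. The sum of the 10 members was 97.3 ± 3.3 CPM in WT and 70.1 ± 11 CPM in KO (n = 3 each), and their part of all channel counts was 6.68% in WT and 18.7% in KO.

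Among leak channels, KCNK12, a K2P subunit that gives little current on its own, had 75, 87 and 58 counts in WT and 15, 16 and 10 in KO. At the different depths this was 1.17 ± 0.21 CPM in WT and 16.9 ± 2.7 in KO (n = 3 each), 14.5-fold higher, with no overlap (log2 change 3.34, SE 0.25, adjusted p = 7.5e-05, edgeR without the filter). KCNK12 is overlapped by a table gene on the opposite strand, and without strand information the reads of overlapping genes cannot be told apart. KCNK3, the acid-sensitive leak channel, had 3559, 2968 and 2985 counts in WT and 61, 72 and 0 in KO. KO replicates 1 and 2 stood at 75.3 and 83.4 CPM, above WT (50.6 ± 5.9, n = 3), and replicate 3 at 0. KCNK3 was not called (log2 change -0.27, SE 0.62, adjusted p = 0.68, edgeR), and without KO replicate 3 the log2 change was 0.33 (adjusted p = 0.11). KCNK1 had 2009, 1858 and 1628 WT counts and none in KO, at least 23.3-fold lower. The K2P sums overlapped between groups, at 89.2 ± 8.2 CPM in WT and 69.9 ± 49 in KO (n = 3 each, exact permutation p = 0.9).

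Of the 13 inward rectifiers, 12 were at 0 in KO, near the 88.9% of all genes. Only 4 of the 13 would have had 3 or more KO counts at the WT share, and 3 of these were at 0. KCNJ8 had 719, 770 and 736 counts in WT, and was at least 9.44-fold lower in KO. KCNJ9, a G-protein-gated subunit, had 531, 529 and 495 counts in WT and 0, 4 and 0 in KO. It was 5.34-fold lower (log2 change -2.70, SE 0.73, adjusted p = 0.010, edgeR). All its KO counts came from KO replicate 2, and it passed the filter mostly through its WT values.

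**Figure D4:**
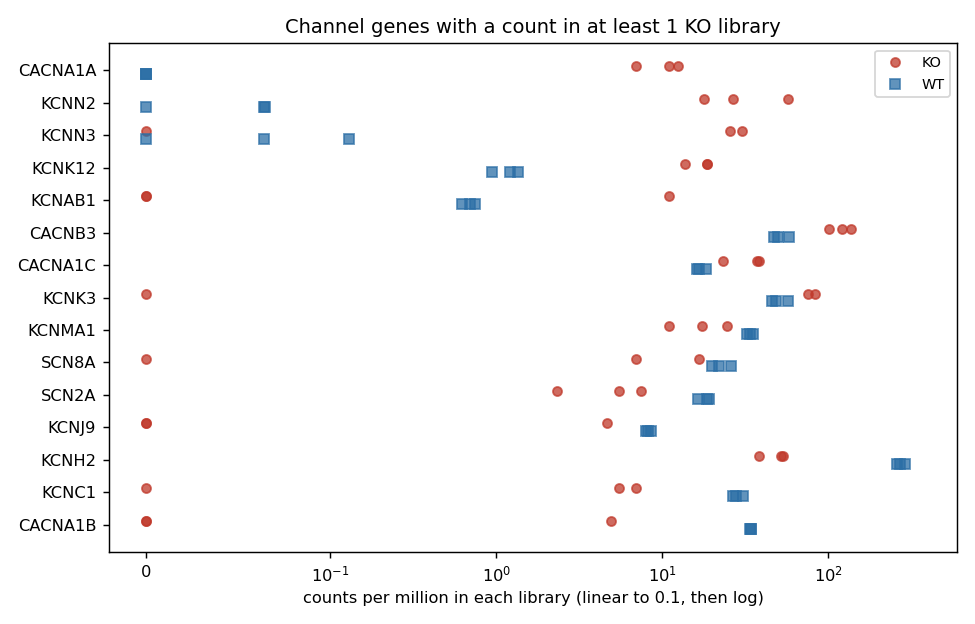
CPM in every library for the 15 channel genes with a count in at least 1 KO library (linear to 0.1, then log). Circles are KO and squares WT libraries. CACNA1A, KCNN2, KCNK12, CACNB3 and CACNA1C lie above WT in all 3 KO libraries, and KCNAB1, KCNJ9 and CACNA1B have counts in 1 KO library each.

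In the deposited hg38 coordinates, the genes higher in KO lie on different chromosomes: KCNN2 at chr5:114055926-114496500, KCNN3 at chr1:154697455-154870281, CACNA1A at chr19:13206442-13624489, CACNB3 at chr12:48813794-48828941 and KCNK12 at chr2:47509290-47570985. Of the 15 members with a KO count, 8 had one in all 3 KO libraries, 4 in 2 and 3 in 1. Their median gene span was 197 kb, against 67.4 kb for the 90 members at 0 and 72.1 kb for those of the 90 with at least 3 counts at the WT share, given as a description. A table gene on the opposite strand overlapped 8 of the 15 and 48 of all 105 members.

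The proteins that traffic, anchor or regulate these channels were read from a separate list of 37 genes, of which 33 were in the table. In KO, 26 of the 33 were at 0, as were 88.9% of all genes. Of the 10 tested, 8 were lower, 1 higher and 1 not called, beside the 88% and 7.63% of all genes tested. CACNG4, a TARP-family protein related to the calcium-channel gamma subunit, had 52769, 46313 and 42349 counts in WT and none in KO, a level at least 601-fold lower. RIMBP2, which links calcium channels to the release site, was at least 195-fold lower and the kinase anchor AKAP9 at least 72.3-fold lower, both at 0 in KO. RIMS2, an active-zone protein that binds calcium-channel beta subunits, had 799, 1018 and 1059 counts in WT and 22, 24 and 16 in KO, and was not called (log2 change 0.37, SE 0.19, adjusted p = 0.098, edgeR). CACNG3, of the same family as CACNG4, was called higher from 22 counts in KO replicate 2 alone, with 0 in every other library. REST, the repressor of neuronal genes, had 1644, 1984 and 2101 counts in WT and 0, 0 and 4 in KO. The median log2 change of the 10 with zeros at their bound was -5.69, against -4.63 for all genes tested.

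The KO values rest on few reads: 3 counts are 3.48 to 4.13 CPM in a KO library, and bounds and floors cover counting error only. The floor of 1.25 CPM over the group is a chosen reference and not a ceiling for a member at 0 in KO. The 95% interval for counting error around 0 reaches 3.69 counts. Libraries can also differ by more than that: KCNK3 had 61, 72 and 0 KO counts.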

How the data were processed

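Poly(A) RNA of SH-SY5Y cells was measured in 3 OTULIN KO and 3 WT libraries, grouped by the genotype in the labels. The authors deposited whole-number counts per gene, not normalized, and FPKM values scaled to gene length and depth, per the file headers. The submitters' processing notes list hg38, DESeq2, StringTie 1.3.4d, HISAT2 2.0.4 and cutadapt 1.9 without their roles. Neither the annotation release nor the strandedness is given in the sources used here, so overlapping, antisense and near-identical genes can share reads.

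Genes averaging 1 FPKM or more over the libraries were fitted with edgeR 4.0.16 (glmQLFit, glmQLFTest, R 4.3.3), TMM factors, total counts as library sizes and no covariate beside genotype. A gene was called at a Benjamini-Hochberg adjusted p under 0.05 over all genes tested. Members under the filter take their values from a fit without it. The standard error is the size of the log2 change divided by the root of F. CPM scale the counts of a library to a common total, and a fold is the ratio of 2 mean CPM. Where a gene is at 0 in a group, the fold is a bound against 3 counts over the group (1.25 CPM in KO, 0.0159 in WT), because a fitted change then moves with the prior count. Values with 1 number per library were tested by exact two-sided permutation. Other size factors, filters, DESeq2 1.42.0, limma 3.58.1 on log2(FPKM + 1) or log2(FPKM + 0.1), a replicate block and leaving out each library were tried. Replicate pairs differed by a chi-square of 15.5 to 41.7 per degree of freedom, so none was counted as 1 library. Without molecular identifiers, reads are not independent molecules.

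The members and lists were chosen with earlier results of these data known. Named were OTULIN, the 20 members highest in WT, each member with a KO count, the highest of each subfamily, each member called higher, and, of the 2 other lists, up to 3 called genes of largest change and each with at least 30 KO counts. Some genes that this rule takes are not reported here by name. REST and CACNG3 were named after their values were seen. Protein sequences were planned to be shown; promoter windows are shown in their place. Promoter sequences come from RefSeq.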

Additional observations from a re-analysis of the deposited data

How the results depend on the processing

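Against 22 channel genes called lower and 2 higher, the fit without a filter called 58 lower and 5 higher, and a minimum of 5 FPKM, which left 6 members, called 4 and 1. Median-ratio factors and DESeq2 each called 1 higher. Leaving out a library also changed how many members passed the filter. Without any 1 KO library, 24 of 27 members tested were lower. Without WT replicate 1, 18 of 21 were lower, and without WT replicate 2 or 3, 16 of 19. Each time 2 were higher. With the replicate number as a block, edgeR called 1 lower and 0 higher (6 and 1 at an unadjusted p under 0.05, and DESeq2 without the block called 1 higher). Whether the numbers pair the libraries was not settled. Same-numbered libraries had deviation correlations of 0.012, -0.0068 and 0.029. Many genes tested are at 0 in every KO library and have no deviation there, so these values cannot decide it. The fit with the block has fewer residual degrees of freedom. The mean number of members with a count per KO library, 11.7, stands beside 41.7 members with at least 3 counts at the WT share. The KO share of counts in the members was 0.0531% without the 4 loci inside ribosomal RNA genes. As shares of summed FPKM, the members held 0.00911% in KO and 0.0621% in WT. The log2 change of CACNA1C turned to -0.029 with median-ratio factors, an alternative chosen after seeing the data, as were all unfiltered leave-outs and scalings. KCNK3 was at 0.11 with library totals and ran from -0.81 to 0.33 over the leave-outs, turning sign without KO replicate 3. KCNAB1 ran from -7.72 to 2.36, turning sign without KO replicate 3, which leaves it at 0 in KO; the cause of the other turns was not tested. For the named members that passed the filter, 270 other values kept direction and call and 23 lost the call, 21 of them under the block. The depth of the KO libraries limits every value under 3 expected counts.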

Other observations

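Other cation channels were read from a second list of 30 genes, of which 22 were in the table. In KO, 19 of the 22 were at 0, as were 88.9% of all genes. Of the 10 tested, 9 were lower in KO and 1 was not called by edgeR (adjusted p under 0.05), beside 88% lower among all genes tested. UNC79 and UNC80, large subunits of the sodium leak channel complex, had counts in every KO library. UNC80 had 2021, 2384 and 2610 counts in WT and 34, 22 and 49 in KO, and was not called (log2 change -0.16, SE 0.26, adjusted p = 0.58, edgeR). UNC79 had 4659, 5078 and 5348 counts in WT and 18, 22 and 25 in KO, 2.93-fold lower (log2 change -1.95, SE 0.14, adjusted p = 1.9e-05, edgeR). NALF1, an auxiliary factor of the same channel, had 7011, 7788 and 7403 WT counts and was at 0 in KO, at least 94.2-fold lower. The polycystin PKD2 and the channel kinase TRPM7 were also at 0 in KO, at least 44.0- and 41.8-fold lower. The pore gene NALCN had 21, 24 and 29 counts in WT and 0 in KO, where 0.943 counts would have been present at the WT share.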
